A study of Mus musculus with 71 samples.

Results

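The CaM kinases are the enzymes that carry a calcium signal from calmodulin into protein phosphorylation. Their genes Camk2a, Camk2b, Camk2d, Camk2g, Camk4, Camkk1 and Camkk2 were taken by symbol, and these 7 genes of the 37681 in the tables are described here across brain regions, time points and treatments. They were selected on measured values, since the cocaine comparisons and the mix across regions in these libraries were already known when the genes were chosen, so every test value below is a description of where a kinase lies among all genes tested and no independent evidence. The libraries are RNA-seq of tissue micro-punches from the nucleus accumbens (NAc), ventral tegmental area (VTA) and prefrontal cortex (PFC) of wild type C57BL/6 mice, given in the study's methods as adult male and female C57BL/6J mice. The animals had self-administered cocaine or saline intravenously and were taken after 1 or 28 days of abstinence. The 3 regions, 2 time points and 2 treatments gave 12 groups and 71 libraries, with 6 libraries in each group but 5 in saline VTA at 28 days. A micro-punch holds all cells of its tissue, so more cells of a type and more RNA per cell cannot be told apart, and the labels do not say which library came from a male or a female mouse. They also do not say that the libraries of a group came from separate animals, and if they did not, the p-values measure only the spread between libraries.

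Calcium entering a neuron binds calmodulin, and calcium-bound calmodulin switches the CaM kinases on. CaMKII is a ring of subunits encoded by Camk2a, Camk2b, Camk2d and Camk2g. A subunit that is phosphorylated by its neighbour on a threonine of its regulatory segment stays active after calcium has fallen, a property long studied in synaptic plasticity. Camk2a and Camk2b are the main forms of forebrain neurons, and Camk2d and Camk2g are found in many tissues. Camk4 encodes CaMKIV, a largely nuclear kinase that phosphorylates the transcription factor CREB. Camkk1 and Camkk2 encode the kinases that activate CaMKI and CaMKIV, and the product of Camkk2 also activates AMP-activated kinase.

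The coding stretch around this threonine is shown for 3 CaMKII genes because it is the switch they share, and because its likeness shows how close the genes are that the reads had to be divided between. The bases are those of GENCODE vM1 transcripts on the mm9 genome, 63 bases of exon 11 of each transcript, and the capitals mark codon 287, the threonine.
Camk2b, chr11:5888970-5889032, minus strand: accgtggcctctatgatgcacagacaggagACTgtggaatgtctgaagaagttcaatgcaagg
Camk2d, chr3:126500629-126500691, plus strand: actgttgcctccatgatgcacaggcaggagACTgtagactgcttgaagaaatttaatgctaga
Camk2g, chr14:21579631-21579693, minus strand: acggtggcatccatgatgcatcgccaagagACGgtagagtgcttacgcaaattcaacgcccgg
Of the 63 bases, 51 were the same in Camk2b and Camk2d, 45 in Camk2d and Camk2g, and 43 in Camk2b and Camk2g. Over the full sequences of their protein-coding transcripts, the longest run of identical bases between any pair of the 4 CaMKII genes was 32 bases, between Camk2a and Camk2b. The labels and the study's methods do not give the rule for reads that match several genes, and so the levels of the CaMKII genes carry that uncertainty. All 7 genes are protein-coding. Camk2d and Camk4 overlap annotated transcripts on the opposite strand, and the strand used in counting is not given in the sources used here, so reads of those transcripts cannot be told apart from theirs.

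The libraries held between 20971967 and 49700932 reads on genes, and no kinase had fewer than 334 reads in any library. Raw counts were given for the NAc at either time and for the other regions at 28 days, and the 1-day tables of the VTA and PFC held RPKM, reads divided by the length of the gene and the depth of the library. Levels are given in RPKM throughout. Defining markers fitted the labelled regions: dopamine neuron markers summed to between 421 and 2020 RPKM in the VTA libraries and to at most 19.5 RPKM elsewhere, where the dopamine factor Pitx3 was at 0 in all 12 NAc and all 12 PFC libraries of 1 day. Striatal markers summed to at least 1617 RPKM in the NAc, and cortical excitatory markers (7 of the 8 listed were in the tables) to at least 476 RPKM in the PFC. Saline library 4 of the PFC at 28 days stood apart, with striatal markers at 1324 RPKM against at most 118 RPKM in the cocaine libraries of that table. In the NAc, cortical markers ranged from 7.62 to 289 RPKM between libraries, in both treatments. The columns of the 28-day tables name the group but not the labelled sample, so the library numbers there are only names.

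The kinases differed far more between regions than between treatments. In the saline libraries at 28 days, all 7 had an adjusted p under 0.05 between the NAc and the VTA (edgeR's quasi-likelihood test with Benjamini-Hochberg adjustment over 17181 genes), where 62.5% of all genes did. Between the NAc and the PFC 6 did, against 40.7% of all genes, and between the VTA and the PFC 6 did, against 57.8%. Each region has its own table, so region and table cannot be told apart. Camk2a, Camk2b, Camk4, Camkk1 and Camkk2 were lowest in the VTA, Camk2d was highest there, and Camk2g was lowest in the NAc.

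Camk2a, the alpha subunit that gives forebrain CaMKII most of its mass, was the most abundant kinase in the NAc and the PFC and spanned the widest range. Its level in the saline libraries at 28 days was 760 ± 46.8 RPKM (SD, n = 6) in the PFC, 466 ± 52.1 RPKM (SD, n = 6) in the NAc and 32.4 ± 9.79 RPKM (SD, n = 5) in the VTA. At 1 day the order was the same, with 664 ± 100 RPKM (SD, n = 6) in the PFC, 386 ± 40.0 RPKM (SD, n = 6) in the NAc and 26.5 ± 2.41 RPKM (SD, n = 6) in the VTA. The lowest PFC library of either day stood above the highest NAc library of the same day and treatment, and the lowest NAc library far above the highest VTA library. On the log2 scale the difference of VTA minus PFC was -4.71 (standard error 0.17), that of NAc minus VTA was 3.96 (0.16), and that of NAc minus PFC was -0.75 (0.14).

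Camk2b, the beta subunit that also ties the enzyme to actin filaments, had another order. The saline libraries at 28 days held 388 ± 43.9 RPKM (SD, n = 6) in the NAc, 224 ± 31.8 RPKM (SD, n = 6) in the PFC and 98.7 ± 16.8 RPKM (SD, n = 5) in the VTA. The NAc, which was below the PFC for Camk2a, was thus above it for Camk2b by 0.75 on the log2 scale (standard error 0.11). Without PFC saline library 4, which held 286 RPKM, the PFC mean was 212 ± 10.8 RPKM (SD, n = 5) and the difference was 0.85. The ratio of Camk2a to Camk2b RPKM gives the same contrast within each library: it ran from 2.64 to 3.82 in the PFC, from 0.999 to 1.65 in the NAc and from 0.249 to 0.403 in the VTA, with no overlap between regions. The lowest value of the PFC was that of saline library 4.

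Camk2d and Camk2g, the delta and gamma subunits of many tissues, did not follow the forebrain pair. Camk2d had its highest level in the VTA, with 30.3 ± 2.93 RPKM (SD, n = 5) against 17.2 ± 2.48 RPKM (SD, n = 6) in the PFC and 12.3 ± 4.26 RPKM (SD, n = 6) in the NAc. The NAc and PFC libraries of Camk2d overlapped, from 8.57 to 19.0 RPKM and from 12.9 to 20.5 RPKM. Their difference of -0.53 on the log2 scale (NAc minus PFC, adjusted p = 0.012, edgeR) was -0.03 in the 1-day saline libraries (adjusted p = 0.83), and no difference was detectable there. Camk2g was at 84.4 ± 11.5 RPKM (SD, n = 6) in the PFC, 79.2 ± 7.86 RPKM (SD, n = 5) in the VTA and 36.2 ± 5.54 RPKM (SD, n = 6) in the NAc. Its PFC and VTA libraries overlapped, and their difference was -0.24 on the log2 scale (VTA minus PFC, adjusted p = 0.056, edgeR), past the threshold in 7 of the 17 fits that left out 1 library. Without PFC saline library 4 this difference was -0.28 and its adjusted p was 0.034. In the 1-day saline libraries it was 0.013 (adjusted p = 0.92).

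Camk4, the nuclear CREB kinase, was highest in the NAc at 33.2 ± 7.76 RPKM (SD, n = 6), followed by the PFC at 16.4 ± 3.57 RPKM (SD, n = 6) and the VTA at 3.30 ± 0.468 RPKM (SD, n = 5). Its NAc range, 20.7 to 41.0 RPKM, met the PFC range only through PFC saline library 4 at 22.1 RPKM. The other PFC libraries reached at most 19.0 RPKM. The VTA libraries, at most 3.82 RPKM, were lower than all of these.

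The levels of the 2 upstream kinases had different orders. Camkk2 was highest in the PFC, 59.2 ± 7.04 RPKM (SD, n = 6), against 42.7 ± 6.89 RPKM (SD, n = 6) in the NAc and 8.17 ± 0.626 RPKM (SD, n = 5) in the VTA. Camkk1 varied much less between regions, with 44.4 ± 2.01 RPKM (SD, n = 6) in the PFC, 42.2 ± 6.67 RPKM (SD, n = 6) in the NAc and 22.0 ± 1.56 RPKM (SD, n = 5) in the VTA. Its PFC and NAc levels were neighbours that did not differ beyond their spread (log2 difference -0.11, NAc minus PFC, standard error 0.09, adjusted p = 0.34, edgeR). In the 28-day cocaine libraries the same difference was -0.41 with an adjusted p of 6.03e-05. Per length of gene, Camkk1 was the more abundant upstream kinase in the 28-day saline VTA libraries, and Camkk2 in those of the PFC. The order in the VTA was the same in the 1-day saline libraries, with mean levels of 22.3 RPKM for Camkk1 and 5.62 RPKM for Camkk2. The order in the PFC was reversed there, with overlap, at 35.7 RPKM for Camkk1 and 32.5 RPKM for Camkk2.

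**Figure D1:**
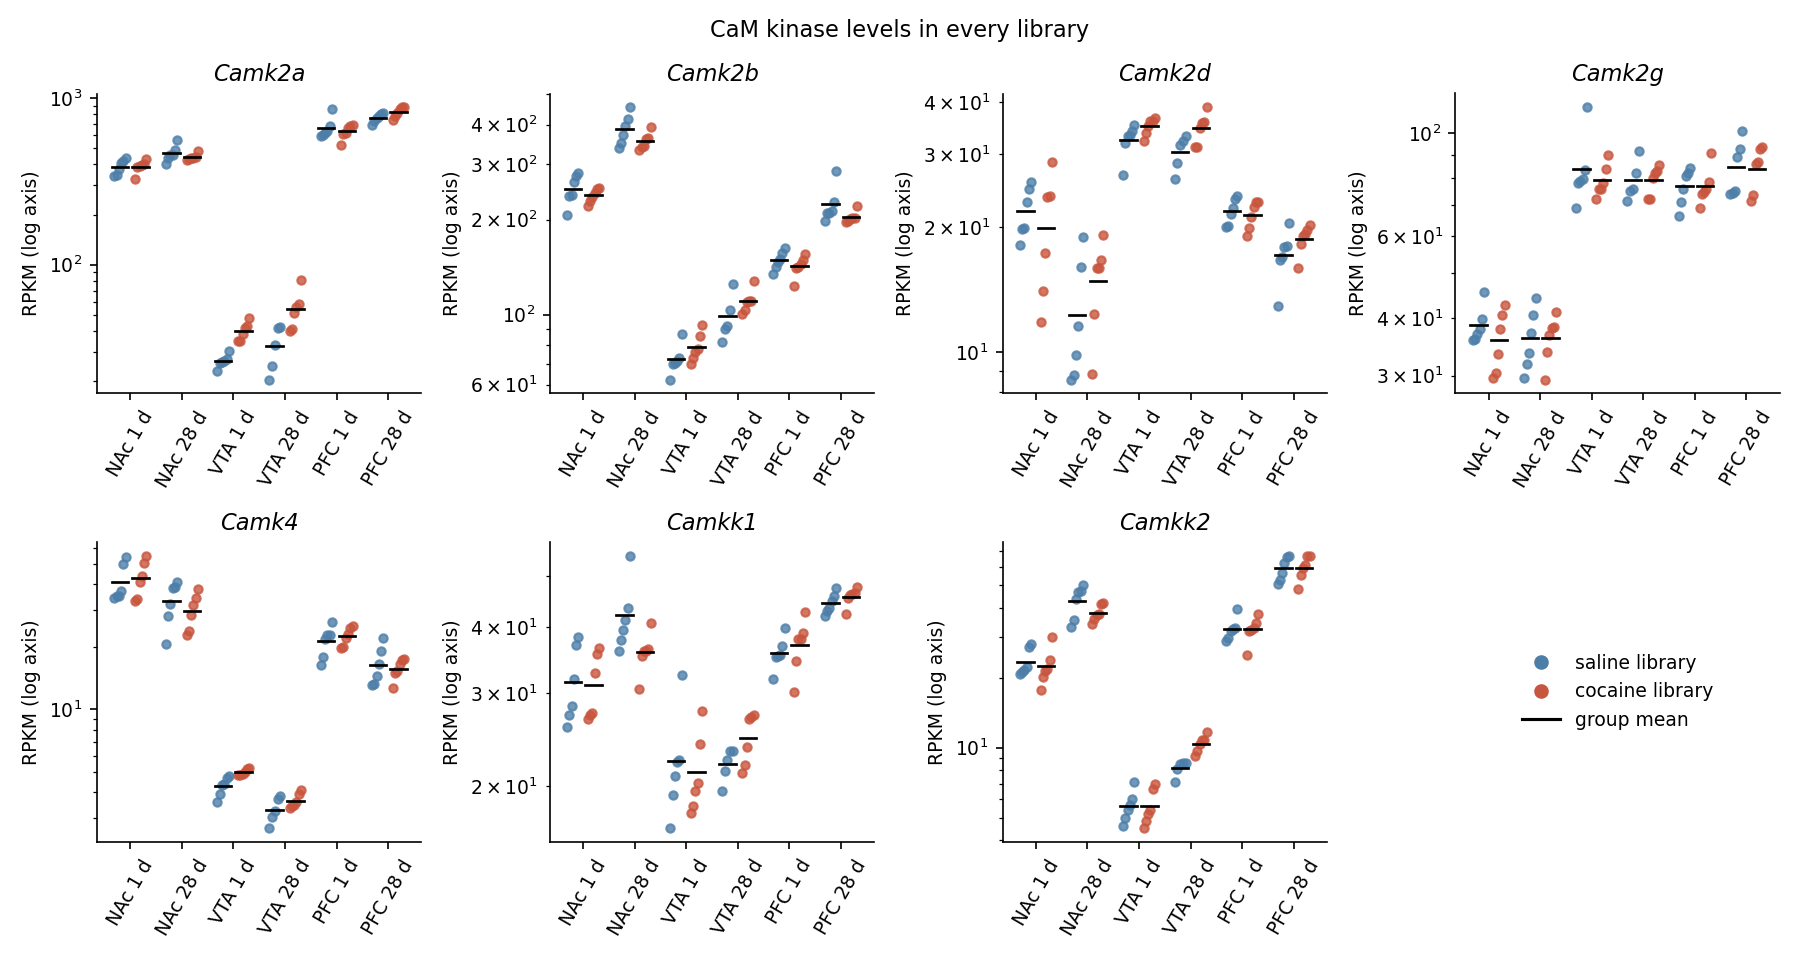
The level of each of the 7 kinases in every library, in RPKM on a logarithmic axis, by region and days of abstinence (d), with saline libraries in blue, cocaine libraries in red and a black bar at each group mean. Camk2a, Camk4 and Camkk2 sat far lower in the VTA than in the NAc and PFC, Camk2d sat highest in the VTA, and Camk2g lowest in the NAc.

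The mix of the 4 CaMKII genes, each as a share of their summed RPKM within a library, differed between regions. In the saline libraries at 28 days Camk2a made up 70.0% ± 1.78 (SD, n = 6) of the PFC sum and 51.6% ± 3.79 (SD, n = 6) of the NAc sum, but 13.3% ± 2.94 (SD, n = 5) of the VTA sum. In the NAc most of the rest was Camk2b, at 43.0% ± 4.51 (SD, n = 6), while Camk2g held 4.02% ± 0.677 and Camk2d 1.37% ± 0.488. In the PFC Camk2b held 20.7% ± 2.58, Camk2g 7.77% ± 0.867 and Camk2d 1.59% ± 0.286 (SD, n = 6). The VTA stood apart from both forebrain regions: Camk2b held 40.8% ± 3.04, Camk2g 33.2% ± 5.15 and Camk2d 12.7% ± 1.11 (SD, n = 5), so that the genes of many tissues made up nearly as much of the sum there as the forebrain pair did. The sum itself was lower in the VTA, 241 ± 25.3 RPKM (SD, n = 5) against 903 ± 53.2 in the NAc and 1086 ± 60.9 in the PFC (SD, n = 6). The RPKM of a gene rests on the length of its longest transcript, and with the length of all its annotated exons in place of it Camk2g led in the VTA with 45.3% and Camk2b followed with 32.8%. Camk2a remained the largest share in the NAc and PFC under either length. In the saline VTA libraries of 1 day Camk2g led in RPKM itself, with 38.8% ± 3.17 (SD, n = 6). Camk2b held 33.5% ± 0.548, Camk2d 15.3% ± 2.56 and Camk2a 12.4% ± 1.33 of the sum there. At 1 day the genes of many tissues thus held more of the VTA sum than the forebrain pair did.

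**Figure D2:**
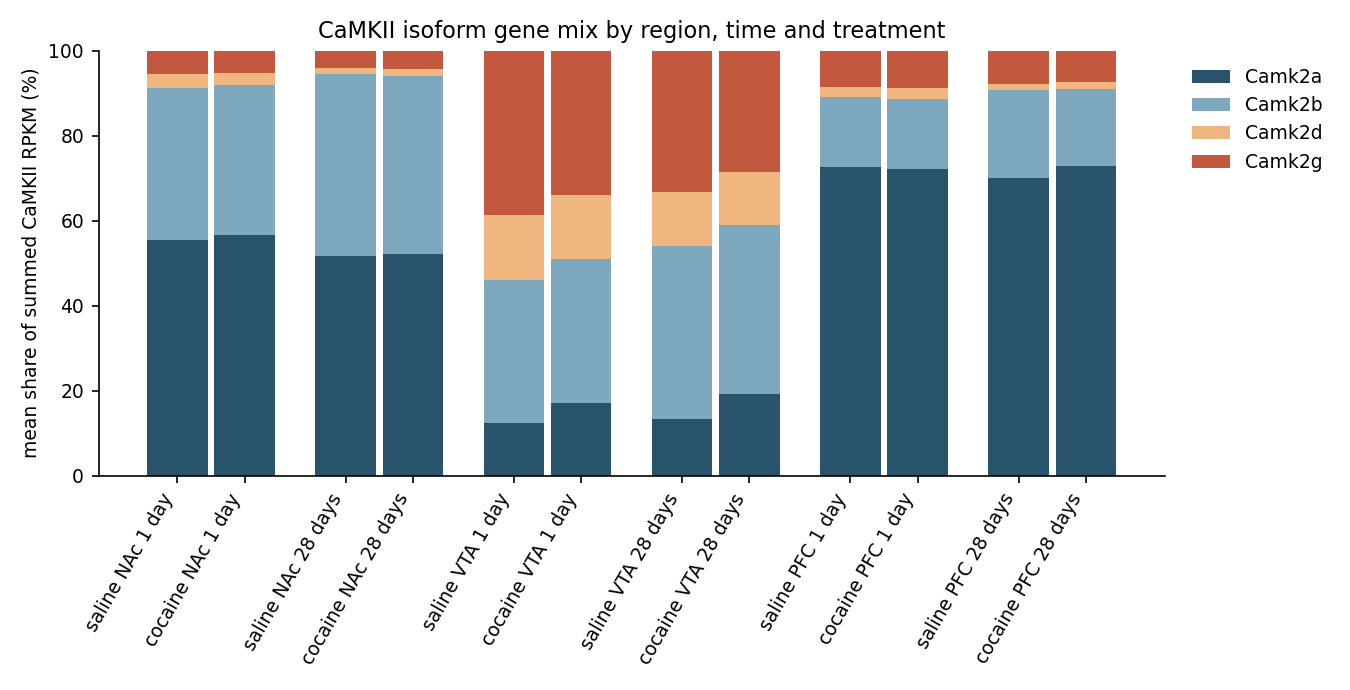
The mean share of Camk2a, Camk2b, Camk2d and Camk2g in their summed RPKM (percent, stacked to 100) for the 12 groups. In saline libraries at 28 days the share of Camk2a was 70.0% in the PFC, 51.6% in the NAc and 13.3% in the VTA, and the VTA bars hold the most Camk2g and Camk2d.

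Cocaine was compared with saline within each region and time point, which is the question the libraries were made for. Over the 7 kinases and 6 comparisons, a single value had an adjusted p under 0.05. It was that of Camk2a in the VTA at 1 day of abstinence, where 0.0665% of all genes tested passed.

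At 1 day of abstinence, VTA Camk2a was higher after cocaine. The cocaine libraries 1 to 6 held 41.8, 38.2, 43.0, 47.7, 34.9 and 34.7 RPKM. The saline libraries 1 to 6 held 27.2, 25.9, 30.5, 25.9, 23.1 and 26.6 RPKM. The groups did not overlap, and the lowest cocaine library stood above the highest saline library. Among all genes tested, 1.3% lay like this, with all cocaine libraries above all saline libraries. The means were 40.0 ± 5.07 RPKM (SD, n = 6) after cocaine and 26.5 ± 2.41 RPKM (SD, n = 6) after saline, a log2 fold change of 0.59 on the log2(RPKM + 0.1) scale (standard error 0.085, limma, adjusted p = 0.027 over 15042 genes). Both groups stayed far below the NAc and PFC, where the lowest library of any group held 326 RPKM. Leaving out 1 library at a time gave 12 fits, and 4 kept the call. It was lost without cocaine library 2, 3 or 4 and without saline library 1, 2, 4, 5 or 6. Over all 12 fits the log2 fold change lay between 0.54 and 0.63 and the adjusted p between 0.017 and 0.11.

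Markers of other cells moved in the same libraries. The cortical excitatory list lay higher after cocaine, with overlap, at 14.2 to 81.9 RPKM summed against 7.75 to 36.2 RPKM, with Emx1 at 0 in 4 of the 12 libraries. The dopamine neuron list lay lower, also with overlap, at 421 to 1023 RPKM against 660 to 1683 RPKM, and so did the microglia list, at 65.3 to 109 RPKM against 100 to 151 RPKM. The GABA neuron list ran at 113 to 324 RPKM against 210 to 425 RPKM after saline, the oligodendrocyte list at 2918 to 4497 RPKM against 3493 to 5988 RPKM, the astrocyte list at 474 to 754 RPKM against 497 to 706 RPKM and the choroid plexus list at 2.19 to 148 RPKM against 1.15 to 59.7 RPKM. The striatal list ran at 133 to 172 RPKM against 116 to 178 RPKM, and its mean log2(RPKM + 0.1) was 2.94 after cocaine and 2.70 after saline. The part of the microglia, GABA neuron, oligodendrocyte, astrocyte, choroid plexus and striatal lists in the result was not tested. With the level of the cortical list as a covariate the log2 fold change of Camk2a was 0.60, and its adjusted p was 0.23. With the dopamine list it was 0.57, and its adjusted p was 0.081. The call was lost in both fits. With the cortical list 0 genes of the table passed, and with the dopamine list 15 did. The mean of a marker list does not hold the cells of a punch constant. Whether cell content lay behind the difference in Camk2a was not tested. In edgeR on the whole reads recovered from the RPKM values, the log2 fold change was 0.55 (adjusted p = 0.035).

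**Figure D3:**
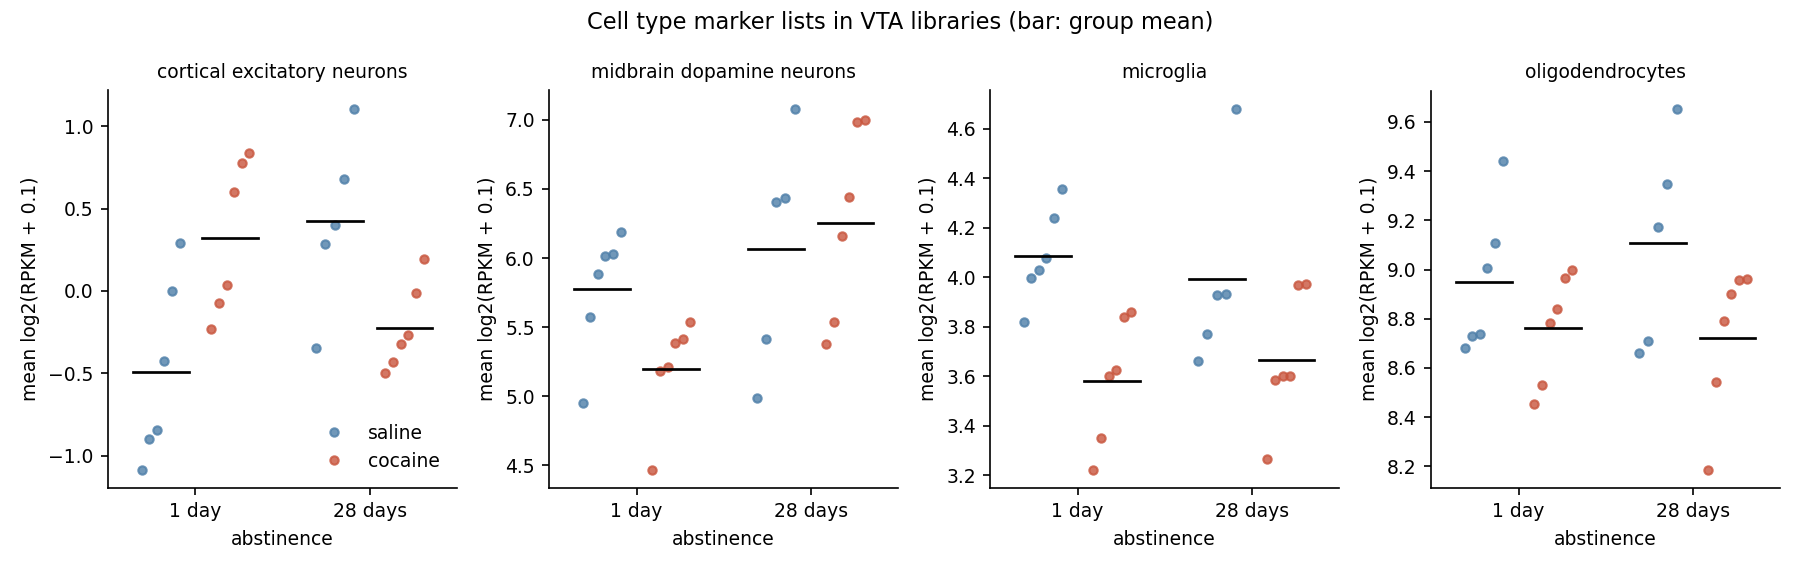
The level of 4 cell type marker lists in the VTA libraries, as the mean log2(RPKM + 0.1) over the markers of a list, by days of abstinence, with saline libraries in blue, cocaine libraries in red and a bar at each group mean. At 1 day the mean of the cortical list was higher and those of the dopamine, microglia and oligodendrocyte lists were lower after cocaine. At 28 days the means of the cortical, microglia and oligodendrocyte lists were lower and that of the dopamine list was higher after cocaine. The groups of every list overlapped.

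Camk4 was the other kinase whose VTA groups did not overlap at 1 day. Its cocaine libraries lay between 4.82 and 5.20 RPKM (median 4.95) and its saline libraries between 3.58 and 4.80 RPKM (median 4.34). All cocaine libraries were above all saline libraries, as for 1.3% of all genes tested, but the gap between the groups was far smaller than the spread of the saline group. The log2 fold change was 0.22 (standard error 0.076) and did not pass (unadjusted p = 0.012, adjusted p = 0.21, limma). An unadjusted p under 0.05 was held by 15.7% of the genes tested in this table.

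The other 5 kinases overlapped between cocaine and saline in the VTA at 1 day. Camk2b was at 79.2 ± 8.47 and 72.2 ± 7.99 RPKM after cocaine and saline, Camk2d at 35.04 ± 1.69 and 32.5 ± 3.00, and Camk2g at 79.3 ± 6.42 and 83.9 ± 15.5 (SD, n = 6). Camkk1 was at 21.3 ± 3.86 and 22.3 ± 5.40 RPKM, and Camkk2 at 5.59 ± 0.999 and 5.62 ± 0.888 RPKM (SD, n = 6). Their log2 fold changes ran from -0.07 to 0.13, none past the threshold. Camk2a was thus the CaMKII gene whose share of the mix was highest against saline: it held 17.2% ± 2.14 of the CaMKII sum after cocaine and 12.4% ± 1.33 after saline (SD, n = 6), with ranges of 13.99 to 20.5% and 10.2 to 14.3%. The share of Camk2g was lower, 33.9% ± 0.973 after cocaine and 38.8% ± 3.17 after saline (SD, n = 6), without overlap. A share falls when another share rises, and in RPKM the Camk2g groups did overlap.

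In the VTA at 28 days, Camk2a differed in the same direction but not past the threshold. The cocaine libraries 1 to 6 held 39.9, 80.5, 51.0, 55.4, 41.0 and 58.0 RPKM. The saline libraries 1 to 5 held 42.0, 24.8, 32.8, 41.8 and 20.4 RPKM. All 6 cocaine libraries were above the saline mean, yet the groups overlapped, since saline libraries 1 and 4 stood above the lowest cocaine libraries, and both groups were wider than at 1 day. The means were 54.3 ± 14.8 RPKM (SD, n = 6) and 32.4 ± 9.79 RPKM (SD, n = 5), a log2 fold change of 0.74 (standard error 0.22, unadjusted p = 0.0051, adjusted p = 0.39, edgeR over 16937 genes). DESeq2 gave 0.74 with an adjusted p of 0.098. No gene of this table passed in edgeR and 11.5% had an unadjusted p under 0.05, while DESeq2 called 73 genes.

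At 28 days the cortical list lay lower after cocaine, with overlap, at 12.3 to 28.7 RPKM summed against 12.5 to 93.6 RPKM after saline. Emx1 was at 0 in 1 library. With the cortical list as a covariate the log2 fold change of Camk2a was 0.67 and with the dopamine list 0.77. The oligodendrocyte list ran from 2535 to 4547 RPKM after cocaine and from 3657 to 7093 RPKM after saline, and the microglia list from 74.1 to 122 RPKM and from 109 to 204 RPKM. The striatal list ran from 137 to 212 RPKM after cocaine and from 111 to 234 RPKM after saline. Its mean log2(RPKM + 0.1) was 3.04 and 2.86. The GABA neuron list ran from 167 to 253 RPKM and from 177 to 310 RPKM. The astrocyte list ran from 333 to 816 RPKM and from 376 to 918 RPKM. For the choroid plexus list it was 1.89 to 7.67 RPKM and 1.59 to 23.5 RPKM. The part of the oligodendrocyte, microglia, striatal, GABA neuron, astrocyte and choroid plexus lists in the result was not tested.

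Camkk2, the upstream kinase that also serves AMP-activated kinase, had the clearest separation of the family at 28 days. The cocaine libraries 1 to 6 held 9.25, 10.8, 11.6, 9.63, 10.4 and 10.8 RPKM. The saline libraries 1 to 5 held 7.12, 8.60, 8.51, 8.55 and 8.06 RPKM. All cocaine libraries were above all saline libraries, a pattern shared by 0.98% of the genes tested. The log2 fold change was 0.34 (standard error 0.076), with an unadjusted p of 0.0007 and an adjusted p of 0.39 in edgeR, and with an adjusted p of 0.021 in DESeq2. At 1 day the same gene had differed by -0.013, and the difference between the time points was 0.36 (standard error 0.15, adjusted p = 0.33, limma). With the cortical list as a covariate the value at 28 days was 0.44 (adjusted p = 0.11). A difference between the time points was not shown.

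For the remaining kinases in the VTA at 28 days the groups overlapped. Camk2d was at 34.6 ± 3.00 RPKM (SD, n = 6) after cocaine and 30.3 ± 2.93 RPKM (SD, n = 5) after saline, a log2 fold change of 0.18 (unadjusted p = 0.040, adjusted p = 0.42, edgeR). Camk2b was at 110 ± 9.55 RPKM (SD, n = 6) and 98.7 ± 16.8 RPKM (SD, n = 5), and Camkk1 at 24.7 ± 2.74 and 22.0 ± 1.56 RPKM. Camk4 was at 3.65 ± 0.290 and 3.30 ± 0.468 RPKM, and Camk2g was level at 79.2 ± 5.60 and 79.2 ± 7.86 RPKM. Camk2a again held more of the CaMKII sum after cocaine, 19.2% ± 3.19 (SD, n = 6) against 13.3% ± 2.94 (SD, n = 5), with ranges of 15.5 to 24.2% and 9.28 to 16.03% that overlapped.

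**Figure D4:**
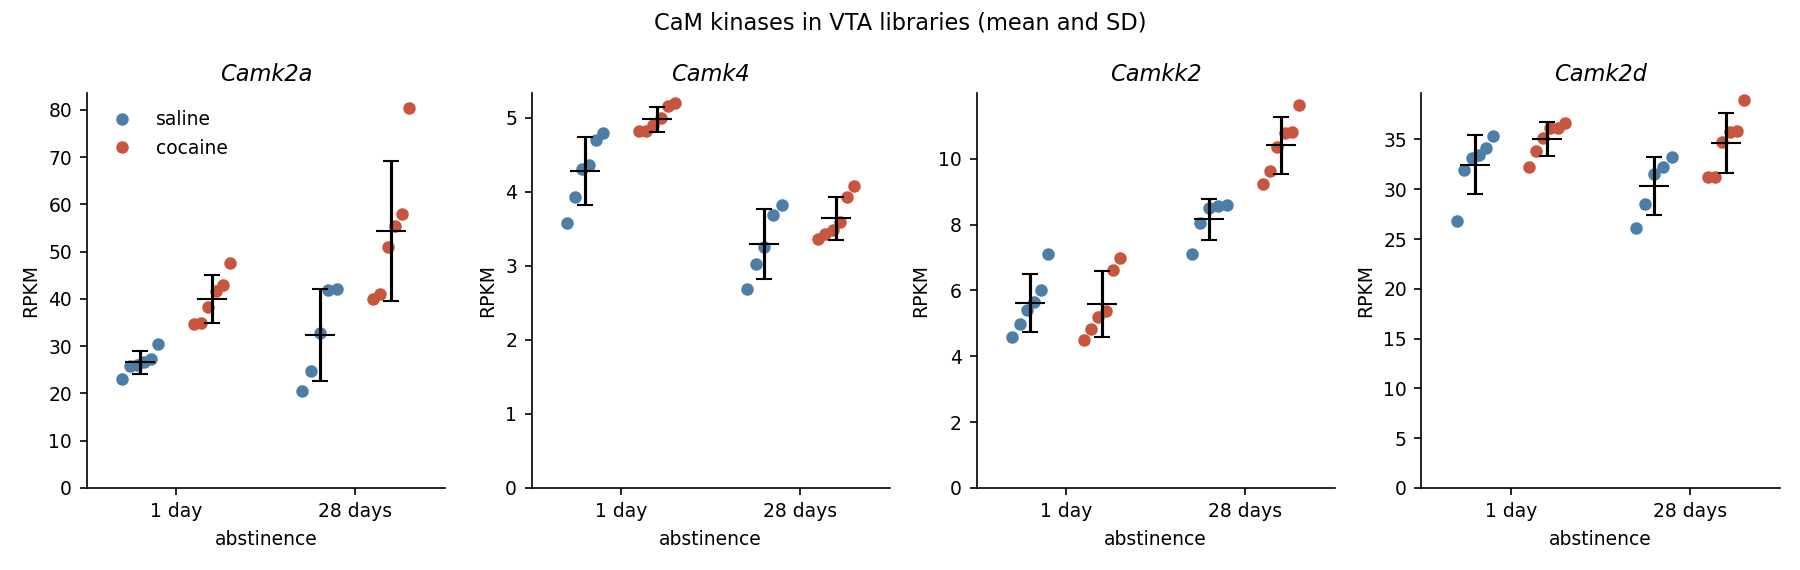
Levels of Camk2a, Camk4, Camkk2 and Camk2d in the VTA libraries, in RPKM on axes from 0, by days of abstinence, with saline in blue, cocaine in red, and the mean and SD in black. For Camk2a the groups were apart at 1 day and overlapped at 28 days, and for Camkk2 they overlapped at 1 day and were apart at 28 days, where cocaine libraries lay between 9.25 and 11.6 RPKM.

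In the NAc no kinase passed the threshold at either time, against 0.0126% of the genes tested at 1 day and 0% at 28 days. At 1 day no kinase had an unadjusted p under 0.05 (4.01% of genes did) and the log2 fold changes ran from -0.13 for Camk2d to 0.08 for Camk4. Camk2a, for example, held 387 ± 34.2 RPKM after cocaine and 386 ± 40.0 RPKM after saline (SD, n = 6). At 28 days Camkk1 was the kinase with the smallest p: its cocaine libraries ran from 30.5 to 40.8 RPKM (median 36.1) and its saline libraries from 36.1 to 54.7 RPKM (median 40.4). All 6 cocaine libraries were below the saline mean and 3 of them below every saline library. The log2 fold change was -0.24 (standard error 0.097, unadjusted p = 0.025, adjusted p = 0.69, edgeR), in a table where 6.76% of genes had an unadjusted p under 0.05 and DESeq2 called 11 genes. With the cortical list as a covariate it was -0.32, with an adjusted p of 0.28. The cortical list ran from 10.4 to 216 RPKM summed after cocaine and from 24.8 to 189 RPKM after saline in this table.

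The other NAc values at 28 days were smaller than their spread. Camkk2 was at 38.0 ± 3.28 RPKM after cocaine and 42.7 ± 6.89 RPKM after saline, and Camk2b at 356 ± 22.0 and 388 ± 43.9 RPKM (SD, n = 6). Camk2a was at 443 ± 20.2 and 466 ± 52.1 RPKM, Camk4 at 29.9 ± 6.06 and 33.2 ± 7.76 RPKM, and Camk2g at 36.2 ± 4.11 and 36.2 ± 5.54 RPKM (SD, n = 6). Camk2d was the kinase with a positive log2 fold change here, at 14.8 ± 3.65 against 12.3 ± 4.26 RPKM (SD, n = 6), and its libraries overlapped.

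In the PFC no kinase passed either, against 0.00693% of the genes tested at 1 day and 0% at 28 days. At 1 day the log2 fold changes ran from -0.07 for Camk2a to 0.09 for Camk4, and no unadjusted p was under 0.05 (3.78% of genes had one). At 28 days Camk2a ran from 741 to 882 RPKM after cocaine (median 836) and from 688 to 809 RPKM after saline (median 769), and 4 of the 6 cocaine libraries stood above every saline library. The log2 fold change was 0.13 (standard error 0.059, unadjusted p = 0.049, adjusted p = 0.84, edgeR), where 5.67% of genes had an unadjusted p under 0.05 and DESeq2 called 2 genes. Camk2b ran the other way, with cocaine libraries from 196 to 221 RPKM and saline libraries from 198 to 286 RPKM, a log2 fold change of -0.13 (adjusted p = 0.84). Without saline library 4, which stood apart, it was -0.05 for Camk2b and 0.13 for Camk2a, and Camk4 went from -0.06 to 0.05.

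**Figure D5:**
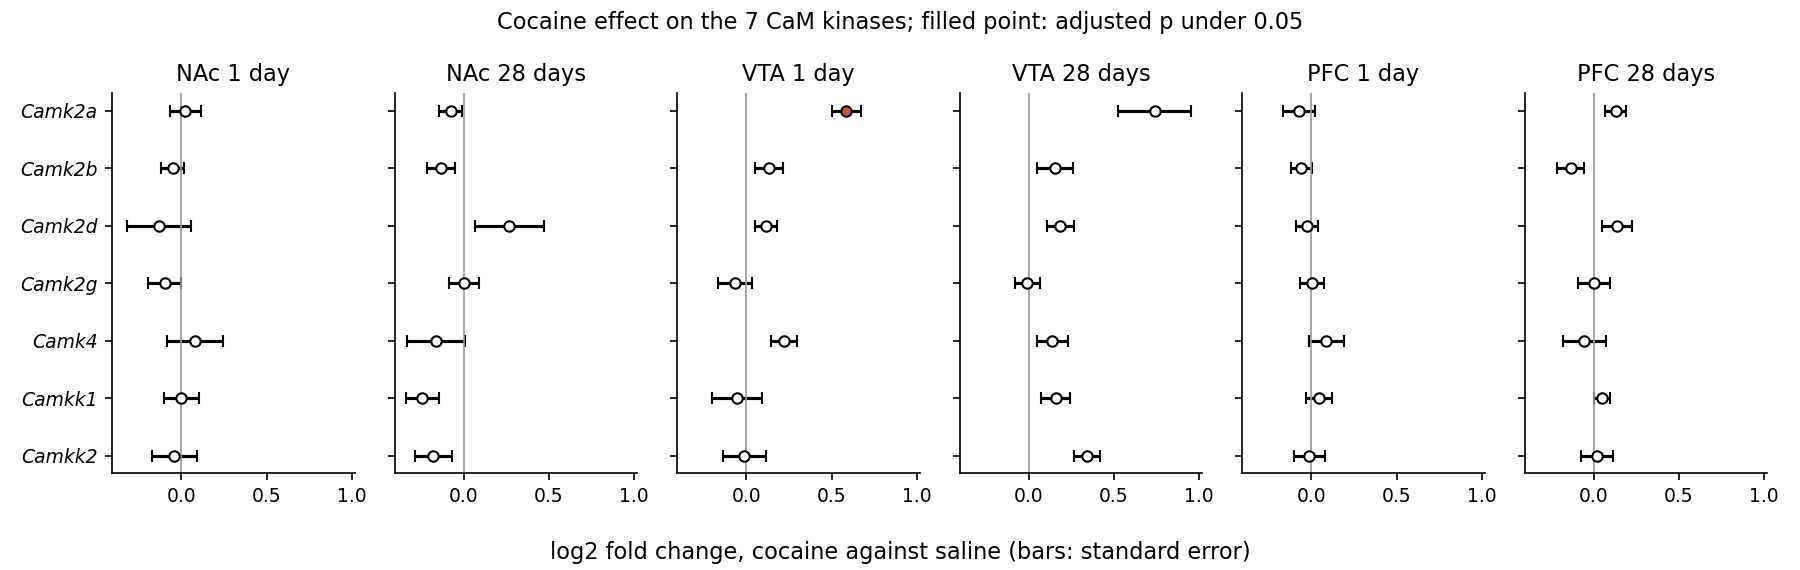
The log2 fold change of cocaine against saline for the 7 kinases in the 6 comparisons, with bars for the standard error, and a filled point where the adjusted p was under 0.05. The filled point is Camk2a in the VTA at 1 day (0.59), the value for Camk2a in the VTA at 28 days was 0.74, and the values of the NAc and PFC lay between -0.24 and 0.27.

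Whether the cocaine effect in the VTA differed from that in the other regions was fitted in 1 model over the 35 libraries at 28 days (edgeR's quasi-likelihood test over 17679 genes). For Camk2a the log2 fold change in the VTA exceeded that in the NAc by 0.84 (adjusted p = 0.12, standard error 0.19, unadjusted p = 0.00011). It exceeded that in the PFC by 0.62 (adjusted p = 0.21, standard error 0.19). No kinase passed in either comparison, against 0.0339% of genes in each. For the VTA against the NAc, DESeq2 gave 0.84 with an adjusted p of 0.0097 and the 1-day libraries 0.53 with an adjusted p of 0.10. For the VTA against the PFC, DESeq2 gave 0.63 with an adjusted p of 0.099 and the 1-day libraries 0.62 with an adjusted p of 0.038. For Camkk2 the effect in the VTA minus that in the NAc was 0.54 (standard error 0.15, adjusted p = 0.26), and for Camkk1 it was 0.42 (standard error 0.12, adjusted p = 0.26). The comparisons share the VTA libraries and are not independent of each other. The model has no term for the animal, and libraries of different regions may come from the same mice. Between the time points within a region no kinase passed, against 0.0181% of genes in the NAc, 0% in the VTA and 0.0137% in the PFC, and Camk2a in the VTA differed by 0.17 (28 days minus 1 day, standard error 0.24, adjusted p = 0.80, limma).

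Around the kinases stand calmodulin itself, the inhibitors, buffers and phosphatases that limit them, calcineurin, and their partners and substrates, 29 genes in all, a list written with earlier results of these data known. None of the 29 had an adjusted p under 0.05 in any of the 6 cocaine comparisons. The median log2 fold change of the list lay between -0.02 and 0.08 over these comparisons. At 28 days in the VTA it was 0.08 against -0.03 over all genes, with 21 genes above 0 and 8 below. With the cortical list as a covariate the median was 0.0029, with 15 above and 14 below, and with the dopamine list 0.0785, with 24 above and 5 below. With no list gene past the threshold, these counts describe the list only. At 1 day in the VTA the median was 0.03, as over all genes, with 18 above 0 and 11 below, and on recovered reads it was -0.014, with 12 above and 17 below. With the dopamine list as a covariate it was -0.010, with 13 above and 16 below, and with the cortical list 0.0469, with 19 above and 10 below.

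Of the list genes with the smallest p in the VTA at 28 days, Gria1, an AMPA receptor subunit and CaMKII substrate, was at 68.6 ± 9.00 RPKM (SD, n = 6) after cocaine and 53.9 ± 7.81 RPKM (SD, n = 5) after saline, a log2 fold change of 0.34 (unadjusted p = 0.011, adjusted p = 0.39, edgeR). Camkv, a CaM kinase-like protein without kinase activity, was at 44.5 ± 8.43 and 25.9 ± 13.2 RPKM (0.77, adjusted p = 0.40). With the cortical list as a covariate these values were 0.13 for Gria1 and 0.33 for Camkv. At 1 day in the VTA the genes of the list with the smallest p included Camkv (0.29, adjusted p = 0.33) and Gap43 (-0.22, adjusted p = 0.46), the latter a calmodulin-binding protein of growing axons, both from limma.

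In the NAc at 28 days the 3 genes with the smallest p were Nrgn, Camk2n1 and Pcp4, all lower after cocaine. Over the list, 4 genes had an unadjusted p under 0.05 (edgeR), 3 lower and 1 higher, where 6.76% of all genes had one. Nrgn, neurogranin, which holds calmodulin at low calcium, ran from 193 to 330 RPKM after cocaine (median 255) and from 255 to 526 RPKM after saline (median 426), a log2 fold change of -0.65 (standard error 0.17, unadjusted p = 0.0014, adjusted p = 0.59, edgeR). Camk2n1, an inhibitor protein of CaMKII, ran from 133 to 188 RPKM after cocaine and from 166 to 243 RPKM after saline (-0.41, adjusted p = 0.59). Pcp4, another calmodulin-binding protein, was at 434 ± 52.9 and 539 ± 108 RPKM (SD, n = 6) with -0.32 (adjusted p = 0.69). With the cortical list as a covariate these values were -0.66, -0.44 and -0.35. In that fit Gap43, another calmodulin buffer, was at 0.14, and Camk2n2, another CaMKII inhibitor gene, at 0.18. The groups of Nrgn, Camk2n1 and Pcp4 overlapped, and none passed.

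In the NAc at 1 day the smallest p were those of Dapk1, a death-associated CaM kinase (log2 fold change 0.10), Calm3, a calmodulin gene (-0.13), and Camk1g, a CaMKI form (0.22), each with an adjusted p of 1.0. In the PFC at 1 day they included those of the NMDA receptor subunit gene Grin2b (-0.25) and the CaMKII inhibitor gene Camk2n2 (-0.09), each with an adjusted p of 0.91. In the PFC at 28 days they were those of Camk2n1 (0.23), Pcp4 (-0.33) and Dapk1 (-0.13), each with an adjusted p of 0.84. Camk2n1 thus had opposite signs in the NAc and the PFC at 28 days, and that difference was not tested.

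Genes whose levels followed each kinase most closely over the 35 libraries at 28 days were found by Pearson's r of log2 CPM. These libraries fall into 3 regions, so r mostly measures a shared order of regions. Camk2a went with Bai2, Kcnv1 and Dlgap4 (r = 0.99 for each), Camk2b with Kcnip2, Car11 and Prosapip1 (0.99 each), and Camkk2 with Spnb3, Zfp365 and Kalrn (0.99 each). Camk4 went with Ppp3ca, the catalytic subunit of calcineurin, with Phactr1 and with Celf1 (0.99 each). Camk2d went with Mrgpre (0.97), Disp2 (0.96) and 1810041L15Rik (0.96), Camk2g with C77080 (0.98), Tbc1d1 (0.97) and Plk3 (0.97), and Camkk1 with Ttll11 (0.97), Epb4.9 (0.97) and Grin1 (0.96). Within the 12 VTA libraries at 1 day, where region does not vary, the genes nearest to Camk2a were Tnfaip8l3, Arid2, Chrm1, Krt77 and Tnrc6b, with r between 0.92 and 0.94. These libraries hold both treatments, and Camk2a itself differed between them.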

How the data were processed

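Libraries were grouped by their labels and columns by their names. The authors aligned reads with STAR 2.4.1d to mm9 (per the labels) and, for 4 tables, deposited the reads on each gene as raw counts that were not normalized. The other 2 tables, the 1-day VTA and PFC, were deposited by the authors as RPKM over the longest isoform. Those lengths, recovered with whole reads (within 0.001 reads) for 23806 of 23806 and 23353 of 23353 genes, 139 and 147 of them by a finer step, gave RPKM for the count tables. A further 30 columns belong to no sample analysed here and were not used, nor were the authors' fold changes and p-values.

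Counts were tested with edgeR 4.0.16 (TMM, filterByExpr, quasi-likelihood test) and RPKM with limma 3.58.1 on log2(RPKM + 0.1), for genes whose mean RPKM reached 0.5, in R 4.3.3, both with Benjamini-Hochberg adjustment over all genes tested. The threshold was an adjusted p under 0.05. Fold changes on the log2(RPKM + 0.1) scale understate changes of low genes. Interactions used 1 model over the libraries concerned. Those between time points used limma in the VTA and PFC, where a table held RPKM, and edgeR in the NAc. Comparisons and interactions between regions used edgeR, at 1 day with the reads recovered from the RPKM of the VTA and PFC. Alternatives were DESeq2 1.42.0, its size factors, no filter, a pseudocount of 1, edgeR on recovered reads, marker covariates, a replicate block and leaving out each library. The scripts were tested on simulated data.

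The members and lists were chosen with earlier results of these data known. Named besides the 7 kinases were list genes past the threshold or, where there were none, the 3 with the smallest unadjusted p per table, except 1 gene that is not reported here, and the nearest genes by correlation (3 per kinase, and 5 for Camk2a in the VTA at 1 day). The covariate of dopamine markers and that of cortical markers in the NAc were added after seeing the data.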

Additional observations from a re-analysis of the deposited data

Results flagged for a closer look

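Of 84 groups of libraries (7 kinases, 12 groups), 8 held a library far from the others by Dixon's ratio, and chance gives about 1 in 20. Camk2a was at 483 RPKM in NAc cocaine library 3 at 28 days and at 858 RPKM in PFC saline library 6 at 1 day. Camk2b was at 221 RPKM in PFC cocaine library 5, at 286 RPKM in PFC saline library 4 and at 128 RPKM in VTA cocaine library 2, all at 28 days. Camk2g was at 114 RPKM and Camkk1 at 32.4 RPKM in VTA saline library 4 at 1 day. Camkk2 was at 39.5 RPKM in PFC saline library 6 at 1 day. Each value was the highest of its group. PFC saline library 4 at 28 days is the library that also carried striatal markers.

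For 2 kinases every cocaine library lay above the saline mean in 1 region and below it in another at 28 days. For Camk2b these were the VTA and the PFC. In the PFC this rested on saline library 4, without which the saline mean was 212 RPKM and cocaine library 5 lay above it. The effects had a difference of 0.29 on the log2 scale (VTA minus PFC effect, adjusted p = 0.38, edgeR). For Camkk2 they were the VTA and the NAc, with a difference of 0.54 (VTA minus NAc effect, adjusted p = 0.26, edgeR). Neither difference passed the threshold, and how many genes show such a pattern was not counted.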

How the results depend on the processing

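The call of Camk2a in the VTA at 1 day was lost with the cortical list as a covariate (0.60, 0 kinases past the threshold) and with the dopamine list (0.57, 0 kinases), and leaving out 1 library gave between 0 and 1 kinases. DESeq2 called 1 kinase in the VTA at 28 days, Camkk2 (0.35), and 1 for the effect in the VTA minus that in the NAc, Camk2a (0.84). The 1-day libraries called 1 for the VTA minus the PFC, Camk2a (0.62). Between regions, Camkk1 passed for the NAc against the PFC (-0.41) and Camk2g for the VTA against the PFC (-0.22) in the cocaine libraries, and in the 1-day saline libraries Camk2d (-0.030) lost its call and Camk2g was at 0.013. Without PFC saline library 4, Camk2g passed for the VTA against the PFC (-0.28), and no other call of a kinase between regions changed. The share of Camk2a at 28 days was 56.4% of reads, or 59.98% by annotated exon length, in the NAc, and 74.2% or 74.8% in the PFC. The cause of these changes was not tested.

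Of 98 log2 fold changes of the kinases, 30 changed sign under some setting, and 0 of these had passed the threshold. Camkk1 in the NAc at 1 day was at -0.00035 with no filter and -0.0016 with the cortical list. Camk2g was at 0.0010 and 0.055 in the NAc at 28 days, and at 0.0042, 0.073 and, with the dopamine list, 0.020 in the VTA at 28 days. Camkk2 in the PFC at 1 day was at 0.0079 on recovered reads. In the 1-day libraries the VTA minus NAc effect was 0.20 for Camk2d, -0.026 for Camk2g, -0.11 for Camkk1 and -0.011 for Camkk2, and the VTA minus PFC effect was -0.17 for Camkk1 and -0.052 for Camkk2. DESeq2 gave 0.0048 for Camk2g in the latter. The ranges of those that changed sign when 1 library was left out follow. In the NAc at 1 day the log2 fold change ran from -0.0145 to 0.0823 for Camk2a, -0.0102 to 0.20 for Camk4, -0.0494 to 0.0647 for Camkk1 and -0.15 to 0.0328 for Camkk2. In the NAc at 28 days the log2 fold change ran from -0.0507 to 0.0518 for Camk2g. In the PFC at 1 day the log2 fold change ran from -0.10 to 0.00656 for Camk2a, -0.0517 to 0.00624 for Camk2d, -0.0428 to 0.0365 for Camk2g and -0.0587 to 0.0591 for Camkk2. In the PFC at 28 days the log2 fold change ran from -0.0374 to 0.0599 for Camk2g, -0.11 to 0.0514 for Camk4 and -0.0253 to 0.073 for Camkk2. In the VTA at 1 day the log2 fold change ran from -0.12 to 0.0254 for Camk2g, -0.13 to 0.0601 for Camkk1 and -0.0806 to 0.057 for Camkk2. In the VTA at 28 days the log2 fold change ran from -0.0434 to 0.0567 for Camk2g. For the difference between time points in the PFC the log2 fold change ran from -0.11 to 0.00221 for Camk2b, -0.045 to 0.045 for Camk2g, -0.0641 to 0.0369 for Camkk1 and -0.0502 to 0.0804 for Camkk2. For the difference between time points in the VTA the log2 fold change ran from -0.0231 to 0.13 for Camk2b and -0.0232 to 0.12 for Camk2g.

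Counts over all genes moved more than those of the kinases. In the VTA at 1 day 10 genes passed (9 higher, 1 lower), against 55 on recovered reads (28 higher, 27 lower), 60 with the replicate block (36 higher, 24 lower), 15 with the dopamine list, 0 with the cortical list and 0 to 65 without 1 library. DESeq2 called 19 against 2 genes in the NAc at 1 day (4 with the cortical list), 11 against 0 in the NAc, 73 against 0 in the VTA and 2 against 0 in the PFC at 28 days, and 10 against 3 for the time points in the NAc. For the time points in the PFC, recovered reads gave 1 against 2. For the VTA minus the NAc DESeq2 gave 33 and the 1-day libraries 18 against 6, and for the VTA minus the PFC 93 and 70 against 6.

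At 1 day samples share replicate numbers, and the correlation of same-numbered libraries over genes was mixed, from -0.49 to 0.59 in the NAc, -0.27 to 0.45 in the VTA and -0.16 to 0.072 in the PFC. In no region were all pairs above 0.1, so the numbers were not taken to pair the samples. A library's own number was the best match for 1 pair in the NAc, 2 in the VTA and 0 in the PFC. With the replicate block Camk2a in the VTA stayed at 0.59 (adjusted p = 0.025, limma), and 2 genes were called in the NAc and 1 in the PFC. No paired analysis was possible at 28 days because the numbers in the 28-day columns are not tied to the labelled samples. Whether same-numbered 1-day libraries of different regions share a mouse was not checked. Each kinase had at least 334 reads in every library, and the 5 or 6 libraries of a group limit the precision.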
